A study of Nicotiana tabacum with 8 samples.

Results

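*CAT1* (Nitab4.5_0009821g0010) was followed as 1 gene of the 81378 in the leaf count table, chosen by its identifier, through 4 groups of tobacco leaves. The study presented it among plant defense-related genes with higher levels in leaves of an *NtCBL5A* overexpressing line than in WT leaves under salt stress. That result was shown by RT-qPCR relative to the reference gene *L25*, whereas the values below are from sequencing. The study's candidate genes came from pathways of genes that responded to overexpression under salt alone, or to salt in the overexpressing line alone. All 8 libraries and all 4 comparisons between them thus entered the choice. Every difference of *CAT1* is therefore given below as a description without a test. S-OE2 and S-WT plants grew in a hydroponic system in which NaCl was raised stepwise to 100 mM, and were sampled 4 days after the start of the treatment, whereas C-OE2 and C-WT plants were grown without added NaCl. OE2 stands for OE-2, a single homozygous transgenic line of the cultivar Zhongyan 100 that carries *NtCBL5A*, a calcium sensor gene, for constitutive overexpression from the 35S promoter of the vector, and WT is the untransformed cultivar. Every library was made from the fifth leaf blades, without main veins, of 4 pooled plants aged about 34 days. The whole design was run in 2 independent experiments, with 1 library per group in each and 8 libraries in all. A spread between the 2 libraries of a group therefore covers both the plants and the experiment.

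Catalases are peroxisomal enzymes that split hydrogen peroxide into water and oxygen. In green leaves much of their substrate is made in peroxisomes by glycolate oxidase during photorespiration, so that leaf catalase is normally abundant in lit tissue. Hydrogen peroxide also accumulates under salt stress and during pathogen defense, and a tobacco catalase has been known as a salicylic acid-binding protein. *N. tabacum* carries a genome from each of its 2 diploid parents, and catalase names differ between sources. The RefSeq gene table for tobacco lists 4 genes with a catalase name, 3 of them under a form of CAT1 and 1 under CAT3, and none of its entries carries a Nitab4.5 identifier. Which of these entries corresponds to the gene followed here was therefore not determined, and other catalase genes were not analysed here.

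On the Nitab-v4.5 assembly used by the authors, *CAT1* lies on the plus strand of scaffold Nitab4.5_0009821, from 24929 to 29318. The gene spans 4390 bases, and the authors' FPKM values use a length of 1871 bases for it. The same scaffold holds 1 other gene of the table, Nitab4.5_0009821g0020, on the minus strand from 29687 to 32243. No gene of the table overlapped *CAT1*, and the neighbour had 0 counts in all 8 libraries. Reads that fit both *CAT1* and a near-identical copy elsewhere could not be separated here, since the study does not state how such reads were counted.

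The total count on genes was 18674594 to 31672013 per library, and 44564 genes passed the filter on low counts. Values in CPM are counts relative to library size after scaling with edgeR's TMM factors, which ranged from 0.755 to 1.37. A gene is said to pass a test where its adjusted p was below 0.05, the p having been corrected over all 44564 genes. The 12 photosynthesis genes with identifiers in the paper, which mark green leaf tissue, were counted in every library and took 1.14% to 3.36% of all counts. Fewer cells of a type and less RNA per cell cannot be told apart in these whole-leaf pools.

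Relative to library size, *CAT1* was highest in salt-stressed OE-2 leaves and lowest in salt-stressed WT leaves, with the control leaves of both genotypes between them. The raw counts, which also follow library size, were lowest in C-WT of Experiment 1. S-OE2 had 56570 counts of *CAT1* in Experiment 1 and 43891 in Experiment 2. S-WT had 13610 counts in Experiment 1 and 12614 in Experiment 2. In C-OE2, 20667 counts were found in Experiment 1 and 21546 in Experiment 2. In C-WT, 10591 counts were found in Experiment 1 and 20079 in Experiment 2. The gene was thus deeply covered in every library, and the exact Poisson 95% interval of each count reached from 0.825% to 1.91% of the count to each side, which covers counting error only.

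After scaling, the levels in S-OE2 were 1653 CPM in Experiment 1 and 1340 CPM in Experiment 2. S-WT had 560.0 CPM in Experiment 1 and 479.2 CPM in Experiment 2. C-OE2 had 1070 CPM in Experiment 1 and 652 CPM in Experiment 2, while C-WT had 752 CPM in Experiment 1 and 811 CPM in Experiment 2. Both S-OE2 libraries stood above the other 6, as for 12.9% of all genes, and both S-WT libraries stood below the other 6, as for 2.06% of all genes. The C-OE2 libraries lay on either side of the C-WT libraries. As a share of all counts, *CAT1* took 0.191% and 0.183% in S-OE2, 0.0510% and 0.0558% in S-WT, 0.0832% and 0.0680% in C-OE2, and 0.0567% and 0.0783% in C-WT, with Experiment 1 given before Experiment 2.

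**Figure D1:**
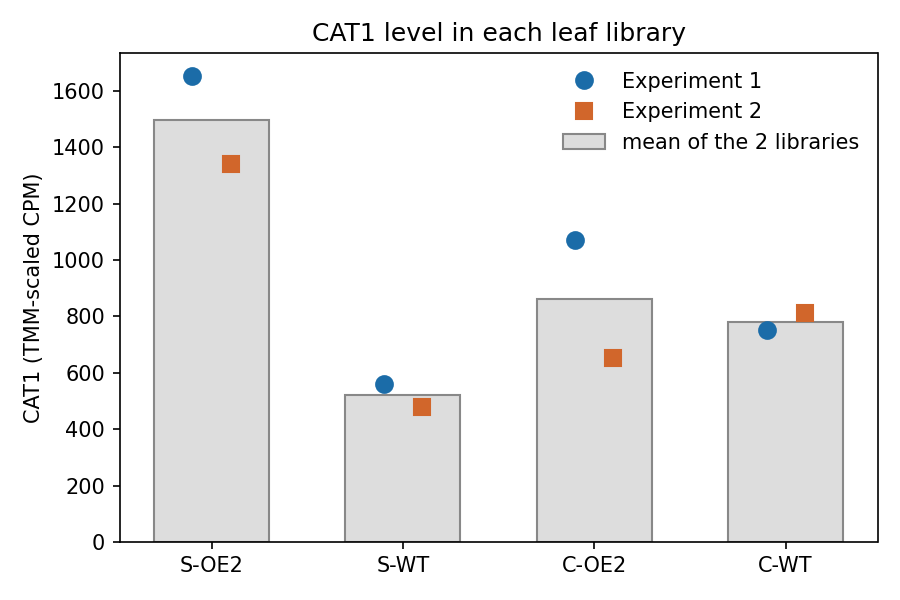
*CAT1* level in TMM-scaled CPM (vertical axis) in the 4 groups (horizontal axis), with points for the libraries of Experiments 1 and 2 and bars for the mean of the 2 libraries. Both S-OE2 libraries, at 1653 and 1340 CPM, lie above all others, and the C-OE2 libraries, at 1070 and 652 CPM, lie on both sides of the C-WT libraries.

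The group means were 1496 ± 221 CPM in S-OE2, 520 ± 57.1 CPM in S-WT, 861 ± 296 CPM in C-OE2 and 781 ± 41.9 CPM in C-WT (SD, n = 2 each). In the order S-OE2, C-OE2, C-WT, S-WT, the neighbours C-OE2 and C-WT overlapped. The widest spread within a group was in C-OE2, where the level in Experiment 1 was 1.64 times that in Experiment 2, far beyond the counting interval. In S-OE2 and S-WT the same ratio was 1.23 and 1.17, and in C-WT it was 0.927. *CAT1* had a biological coefficient of variation of 19.6% in the fit, against 24.2% for the common value over all genes.

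Measured per length, *CAT1* was among the more abundant transcripts in all groups. The authors' FPKM was 1233 and 1005 in S-OE2, 442 and 381 in S-WT, 849 and 526 in C-OE2, and 618 and 668 in C-WT. By FPKM it ranked 99th and 85th among all genes in the S-OE2 libraries, 456th and 388th in the S-WT libraries, 287th and 338th in the C-OE2 libraries, and 389th and 306th in the C-WT libraries. By raw count it ranked 29th and 26th in S-OE2, whereas its best rank in the other 6 libraries was 158th. Ranks do not depend on the scaling between libraries.

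Under salt stress, *CAT1* differed between S-OE2 and S-WT by 1.52 on the log2 scale (standard error 0.23) in the joint fit of both experiments, a fold of 2.87. The experiments gave similar sizes, with S-OE2 at 2.95 times S-WT in Experiment 1 and 2.80 times S-WT in Experiment 2. The S-OE2 libraries did not overlap with the S-WT libraries, as was the case in this direction for 22% of the 44564 genes, from which nothing is read here. When libraries were scaled by their total counts instead, the median over all genes was 0.30, and *CAT1* lay 1.52 above it, at 1.81.

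Without salt, the log2 difference of *CAT1* between C-OE2 and C-WT was 0.10 (standard error 0.23, 95% interval -0.42 to 0.62). A small difference here was favoured by the choice of the gene, since the study sought genes that overexpression affected under salt alone. The interval reaches from 0.746-fold to 1.54-fold. The experiments went in opposite directions, with 0.51 in Experiment 1 and -0.32 in Experiment 2 on the log2 scale. Such a change of direction between the experiments was found for 47.4% of all genes in this comparison. Without the C-OE2 library of Experiment 1 the log2 fold change of *CAT1* was -0.19, without the C-WT library of Experiment 1 it was -0.16, and without the C-OE2 or C-WT library of Experiment 2 it was 0.39 or 0.37, so that its direction rested on which experiment was included.

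In WT leaves, *CAT1* had lower levels in S-WT in both experiments, at 0.745 times C-WT in Experiment 1 and 0.591 times C-WT in Experiment 2. Its log2 fold change was -0.61 (standard error 0.23, 95% interval -1.13 to -0.08). The S-WT libraries were both below the C-WT libraries, as for 13.1% of all genes. Omitting the second C-WT library gave -0.32, and the value was -0.56 without the S-WT library of Experiment 1 and -0.64 without that of Experiment 2. The interval is not read as a test, since these libraries entered the choice of the gene. Whether it covered 0 changed with the libraries, the experiment term and the scaling. Scaled by total counts, the gene stood at -0.33, which was 0.63 below the median of all genes at 0.30.

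In OE-2 leaves *CAT1* was on the other side, with higher levels in S-OE2 than in C-OE2 in both experiments. S-OE2 was at 1.54 times C-OE2 in Experiment 1 and 2.06 times C-OE2 in Experiment 2. The joint log2 fold change was 0.82 (standard error 0.23). The libraries did not overlap, as in this direction for 25.2% of all genes. The value depended on both C-OE2 libraries, since it was 1.12 without that of Experiment 1 and 0.54 without that of Experiment 2. It also depended on the scaling, since with total counts it was 1.31. Total counts moved the median of all genes in this comparison to 0.50, and *CAT1* then lay 0.80 above that median.

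**Figure D2:**
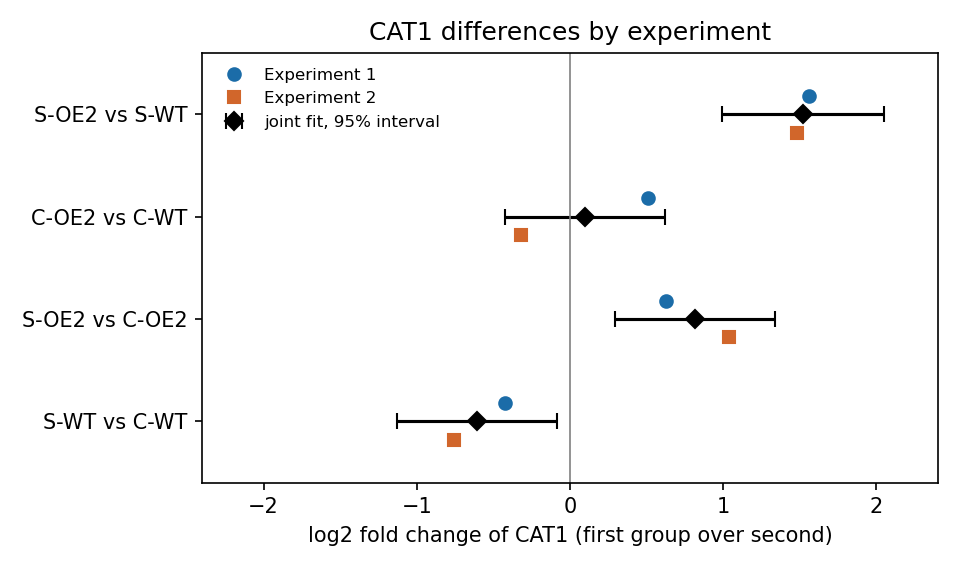
Log2 fold change of *CAT1* (horizontal axis, first group over second) in 4 comparisons, for each experiment and for the joint fit with its 95% interval. The salt-stressed comparison of S-OE2 with S-WT gave 1.56 and 1.48 in the experiments, whereas that of C-OE2 with C-WT gave 0.51 and -0.32. The intervals are not read as tests, since all 4 comparisons entered the choice of the gene.

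*CAT1* thus went in opposite directions with salt in OE-2 and in WT, in both experiments. The joint estimate of this difference between the genotypes, the log2 fold change of S-OE2 over S-WT minus that of C-OE2 over C-WT, was 1.42 (standard error 0.33). It was 1.05 in Experiment 1 and 1.80 in Experiment 2. The pattern of lower levels in S-WT than in C-WT together with higher levels in S-OE2 than in C-OE2, in both experiments, was found for 4.49% of the 44564 genes.

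The 500 genes with the highest mean FPKM in the control libraries were taken to describe how *CAT1* stood among abundant leaf transcripts. This set was formed after the values of *CAT1* had been seen. *CAT1*, at a mean of 665 FPKM over the 4 control libraries, held place 324 among them. Between S-OE2 and S-WT under TMM scaling, 445 of the 500 genes had a negative and 55 a positive log2 fold change, with a median of -0.98. Scaled by total counts, 419 were negative and 81 positive. At 1.52, *CAT1* held place 5 from the top of these 500. Among all 44564 genes, 2931, or 6.58%, had a higher value than *CAT1*, and the median was 0.01 under TMM scaling. The study picked *CAT1* as higher in this comparison, so its place is a description. 

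The 4 genes above *CAT1* among the 500 have no name in the table and were singled out after their values had been seen. Nitab4.5_0007367g0040 was at 482.4 and 375.9 CPM in S-OE2 and at 0 counts in S-WT, and at 687.7 and 550.2 CPM in C-OE2 and 0 counts in C-WT. It was thus counted in the OE-2 libraries alone, with or without salt, and was lower in S-OE2 than in C-OE2, and whether its reads come from the transgene was not determined. Nitab4.5_0004136g0010 had a log2 fold change of 3.03, with 1270 and 662 CPM in S-OE2 and 146 and 87.7 CPM in S-WT. For Nitab4.5_0004430g0020 it was 2.88, from 182 and 55.7 CPM in S-OE2 and 22.5 and 8.28 CPM in S-WT. The value of Nitab4.5_0000037g0280, 1.53, was close to that of *CAT1*, but its experiments differed more, with 1.01 in Experiment 1 and 2.21 in Experiment 2.

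**Figure D3:**
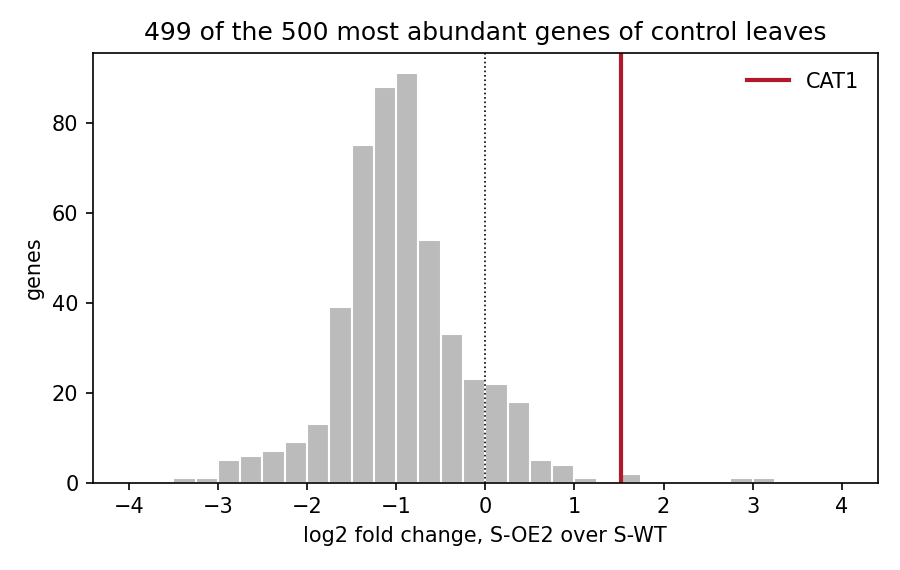
Distribution of the log2 fold change of S-OE2 over S-WT (horizontal axis, bins of equal width) among the 500 genes with the highest mean FPKM in control leaves, with the number of genes on the vertical axis and *CAT1* as a red line. 1 gene with 0 counts in WT is not drawn, most genes lie below 0, with a median of -0.98, and *CAT1* lies at 1.52.

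*CAT1* was listed by the study with 11 other plant defense-related genes. These comprise the hypersensitive response markers *NRP* and *HSR203J*, the pathogenesis-related genes *PR1a*, *PR1b*, *PR1c*, *PR-Q*, *PR-R* minor and *PR-R* major, and *EDS1*, *RIN4* and *ERF1*, which take part in immune and ethylene signalling. *CAT1* differed from them by its level without salt. In all 4 control libraries it had the highest FPKM of the 12, between 526 in C-OE2 of Experiment 2 and 849 in C-OE2 of Experiment 1, and the next gene was *NRP* with 21.4 to 43.6 FPKM. In S-OE2 *CAT1* ranked 7th of the 12 in Experiment 1 and 6th in Experiment 2, below *PR1a* with 21100 FPKM in Experiment 1 and 13986 FPKM in Experiment 2. In S-WT it ranked 3rd in Experiment 1, where *PR1a* had 536 FPKM, and first in Experiment 2.

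The 11 genes had log2 fold changes of S-OE2 over S-WT from 1.76 for *EDS1* to 7.68 for *PR1b*, all above the 1.52 of *CAT1*. Between S-WT and C-WT the joint log2 fold changes of all 11 were positive, from 0.57 to 6.26 with a median of 2.92, against -0.61 for *CAT1* and a median of 0.03 over all genes. The experiments differed, however. In Experiment 1 the S-WT level exceeded the C-WT level for all 11, whereas in Experiment 2 it did so for 5, and *RIN4*, *PR-Q*, *PR-R* major and the 3 *PR1* genes were lower in S-WT. *PR1a* had 4470 counts in S-WT and 0 in C-WT in Experiment 1, against 17 in S-WT and 47 in C-WT in Experiment 2. None of the 11 passed there by edgeR's test, as against 0.0875% of all genes. Of the 11, 9 had an unadjusted p below 0.05, as against 9.64%. DESeq2 called *NRP* alone of the 11, among 594 genes that it called in all. Without the second S-WT library, the log2 fold changes of the 6 pathogenesis-related genes were 4.55 to 8.19. That fit leaves 1 S-WT library, which is assumed to vary like the other groups. Between C-OE2 and C-WT, 3 of the 11 joint values were positive and 8 negative, with a median of -0.41 against 0.01 over all genes. In Experiment 1, 6 genes were higher and 4 lower in C-OE2, with 1 equal. In Experiment 2, 4 were higher and 7 lower. Some counts were near 0, with *PR1c* at 0 and 0 in C-OE2 and 0 and 2 in C-WT. *PR1b* had 6 and 4 in C-OE2 and 0 and 7 in C-WT. None of the 11 passed by edgeR's test, as against 0.0359% of all genes. DESeq2 called *HSR203J* alone of the 11, among 256 genes that it called in all. By edgeR's test, 2 had an unadjusted p below 0.05, as against 4.52%. The study examined *NRP* and *HSR203J* as markers of the hypersensitive response. It picked the other defense genes, like those of the lists that follow, on the same libraries and comparisons. All these counts are therefore given as descriptions.

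**Figure D4:**
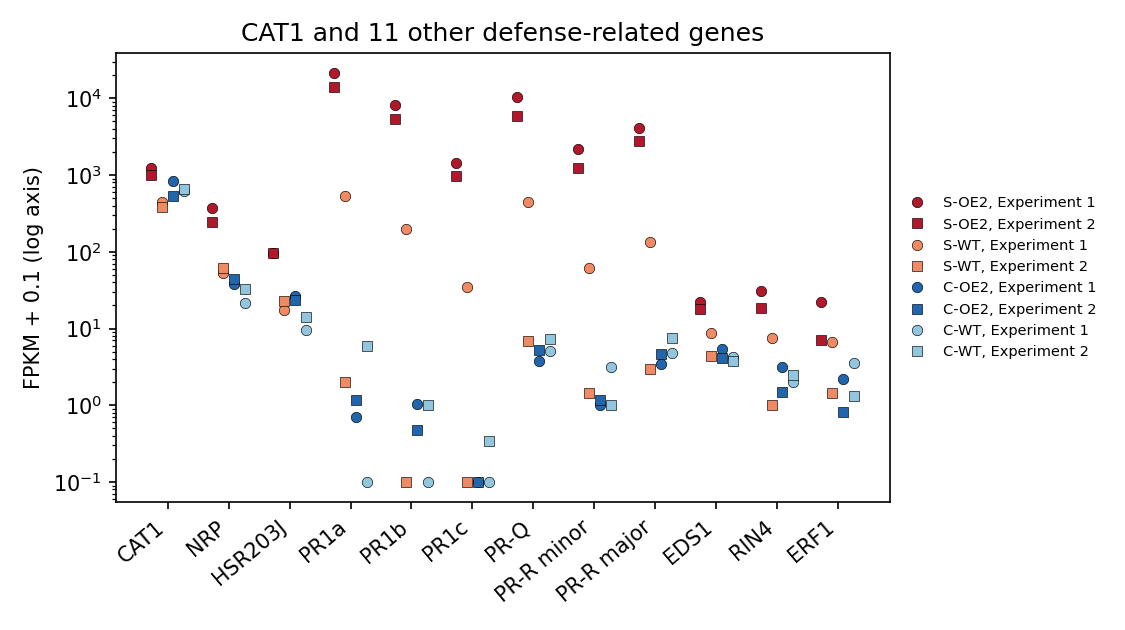
FPKM plus 0.1 on a log axis (vertical) of *CAT1* and the 11 other defense-related genes (horizontal), in each library, coloured by group and with circles for Experiment 1 and squares for Experiment 2. *CAT1* lies between 381 and 1233 FPKM in all 8 libraries, whereas *PR1a* reaches 21100 FPKM in S-OE2 and is far lower in the control libraries.

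The 12 photosynthesis genes with identifiers in the paper stood in another relation to *CAT1*. They code for subunits of photosystems I and II, antenna proteins, ferredoxin, a subunit of the chloroplast ATP synthase and a Calvin cycle enzyme. Between S-WT and C-WT all 12 log2 fold changes were negative, from -1.11 to -0.35 with a median of -0.61, and *CAT1* with -0.61 lay in their middle, below 6 and above 6 of them. In each experiment all 12 had lower levels in S-WT. None of the 12 passed by edgeR's test, as against 0.0875% of all genes, and 10 had an unadjusted p below 0.05, as against 9.64%. DESeq2 called *PsaH*, *PsaD*, *PsbX*, *Lhca3* and *Lhcb4*, among 594 genes that it called in all. Between S-OE2 and C-OE2 the 12 values lay between -3.02 and -1.22, on the opposite side from the 0.82 of *CAT1*. The comparisons within WT and within OE-2 share no libraries. Between C-OE2 and C-WT the 12 genes had joint values from -0.46 to -0.07 with TMM factors, and 2 of the 12 turned positive under total-count scaling. The experiments differed, with 5 genes higher and 7 lower in C-OE2 in Experiment 1, and all 12 lower in Experiment 2. None of the 12 passed there by edgeR's test, as against 0.0359% of all genes, or by DESeq2. None had an unadjusted p below 0.05 by edgeR's test, as against 4.52%.

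The study also listed 4 genes of cation transport. Between S-WT and C-WT, *CNGC1*, *NCX1* and *CHX18* had a positive joint log2 fold change and *CAX3* a negative one. Those of *CNGC1* and *CHX18* came from Experiment 1, where *CNGC1* had 81 counts in S-WT against 7 in C-WT and *CHX18* had 4 in S-WT against 0 in C-WT, whereas in Experiment 2 both genes had 0 counts in S-WT and 1 in C-WT. *NCX1* was higher and *CAX3* lower in S-WT in both experiments. None of the 4 passed by edgeR's test, as against 0.0875% of all genes, and 2 had an unadjusted p below 0.05, as against 9.64%. DESeq2 called *NCX1* alone of the 4, among 594 genes that it called in all. Between C-OE2 and C-WT none of the 4 passed by edgeR's test, as against 0.0359% of all genes, or by DESeq2. None had an unadjusted p below 0.05 by edgeR's test, as against 4.52%. *CAT1* lay below 3 of the 4 between S-WT and C-WT.

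Across libraries, the correlation of *CAT1* with the defense and photosynthesis lists depended on S-OE2. The log2(CPM + 1) values of the 8 libraries gave Pearson correlations with *CAT1* of 0.63 to 0.79 for the 11 defense genes and of -0.60 to -0.13 for the 12 photosynthesis genes. Over the 6 libraries without S-OE2 they were -0.60 to 0.08 for the defense genes and 0.59 to 0.87 for the photosynthesis genes. The 4 cation genes had -0.64 to 0.78 over the 8 libraries and -0.64 to 0.91 over the 6, where *CAX3* was highest. The spread of these correlations over all genes was not determined for the 6 libraries. The libraries fall into 4 groups and 2 experiments and are not independent samples, and leaving out S-OE2 was chosen after its levels had been seen. These correlations are descriptions and carry no p.

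The 10 genes whose pattern was most like that of *CAT1* over the 8 libraries had Pearson correlations from 0.964 to 0.995 in log2(CPM + 1). They are drawn from 44563 genes, and 184 genes exceeded 0.9 and 122 lay below -0.9. Over the 6 libraries without S-OE2 the correlations of the 10 were 0.882 to 0.993. Those 6 libraries were among the 8 by which the 10 genes were picked, so high values over them were favoured by the choice. All 10 genes were expressed at far lower levels than *CAT1*, between 0.266 and 57.6 CPM, and 7 of them stayed below 10 CPM in every library. The first, a gene model of the authors' own assembly on scaffold Nitab4.5_0000833 from 651996 to 656037, had only 7 to 34 counts, so that counting noise is wide there.

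Nitab4.5_0014089g0010, from 14139 to 22492 of its scaffold, was the most abundant of the 10. It had 57.6 and 49.2 CPM in S-OE2, 12.1 and 6.84 CPM in S-WT, 47.5 and 14.8 CPM in C-OE2, and 17.1 and 18.5 CPM in C-WT, with a correlation of 0.972. As for *CAT1*, its C-OE2 libraries lay on both sides of the C-WT libraries. Nitab4.5_0009044g0040, from 33158 to 42727 of its scaffold, had 41.6 and 36.1 CPM in S-OE2, 19.3 and 15.4 CPM in S-WT, 32.5 and 24.2 CPM in C-OE2, and 25.5 and 22.8 CPM in C-WT. Nitab4.5_0000287g0180, from 480608 to 483674 of its scaffold, had 30.4 and 21.4 CPM in S-OE2 and 12.3 and 9.69 CPM in S-WT, with a correlation of 0.965. The others were Nitab4.5_0000844g0380, Nitab4.5_0000351g0040, Nitab4.5_0005205g0010, Nitab4.5_0001033g0030, Nitab4.5_0009421g0020 and a second model of the authors' assembly on scaffold Nitab4.5_0003225 from 5098 to 18225. Their log2 fold changes of S-OE2 over S-WT, over all 10, lay between 1.17 and 3.08. The files pair none of these identifiers with a gene name.

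**Figure D5:**
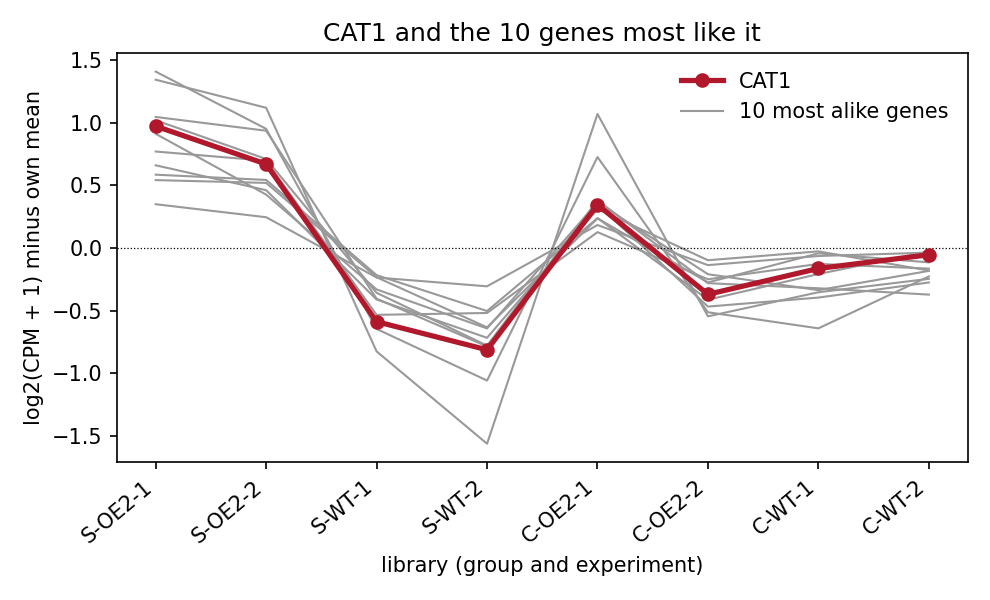
Log2(CPM + 1) minus the gene's own mean (vertical axis) in the 8 libraries (horizontal axis, group and experiment) for *CAT1* (red) and the 10 genes with the highest correlation to it (grey). All 10 lie above their own mean in both S-OE2 libraries and below it in both S-WT libraries. They were selected by their correlations over all 8 libraries, from 0.964 to 0.995.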

How the data were processed

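Leaf RNA of 8 libraries was sequenced. The authors aligned reads with HISAT2 2.0.5 to the Nitab-v4.5 assembly, assembled transcripts with StringTie 1.3.3b and counted reads per gene with featureCounts 1.5.0-p3. They deposited raw counts of 81378 genes, 11878 of them from their own assembly. The authors also deposited FPKM values, in which each count is taken per base of gene length and per library denominator of 49.0% to 97.6% of the total count. The FPKM values were used for ranks and levels per length.

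The analysis used R 4.3.3, edgeR 4.0.16 and limma 3.58.1, with DESeq2 1.42.0 as an alternative. Counts were filtered with filterByExpr, scaled with TMM and fitted over all 8 libraries by edgeR's quasi-likelihood method, with group and experiment as terms and a threshold of 0.05 on the Benjamini-Hochberg adjusted p. Standard errors were derived from the F statistics. The experiment was a block because the study made its comparisons within each experiment, and libraries of 1 experiment moved together around their group means (correlation over genes 0.468 to 0.641, 6 pairs of groups). Libraries of a group were not copies of each other (chi-square over degrees of freedom 59.2 to 121). With 1 pool per group and experiment, plants and experiments cannot be told apart. The p-values weigh differences against the spread between these pools that remained after the experiment term.

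The gene and the lists were chosen with earlier results of these data known. Since all 4 comparisons had entered the study's choice, the planned tests of *CAT1* are not given. Named genes were *CAT1*, genes of its scaffold, the 10 most correlated genes and the genes with identifiers in the paper, and 4 abundant genes were named after their values had been seen. A planned list of other genes that make or remove hydrogen peroxide was left out, because no file pairs Nitab4.5 identifiers with descriptions. The *NtCBL5A* transgene was not analysed here.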

Additional observations from a re-analysis of the deposited data

Results flagged for a closer look

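The salt response of *CAT1* had opposite directions in OE-2 and WT in both experiments, which is why it is listed here. The log2 fold change with salt was 0.63 and 1.04 in OE-2 and -0.42 and -0.76 in WT, with Experiment 1 given before Experiment 2. The difference between the genotypes was 1.42 on the log2 scale (standard error 0.33). It was not tested, because the study chose the gene with these comparisons. Of all genes, 4.49% showed the same pattern of directions.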

How the results depend on the processing

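With single libraries left out, the log2 fold change of *CAT1* ranged from -0.19 to 0.39 for C-OE2 against C-WT, from -0.85 to -0.32 for S-WT against C-WT, from 1.48 to 1.56 for S-OE2 against S-WT, from 0.54 to 1.12 for S-OE2 against C-OE2 and from 1.15 to 1.72 for the difference between them. Total-count scaling gave 1.81 for S-OE2 against S-WT and 1.31 for S-OE2 against C-OE2, which follows its shift of all genes, and the authors' FPKM gave 1.44 for S-OE2 against S-WT. Without the replicate block the *CAT1* values were 0.14, -0.59, 1.53, 0.80 and 1.39 in the same order.

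Over all genes, 16 were called between C-OE2 and C-WT, against 39 with total counts, 236 with no filter, 3 without the replicate block, 213 with the 4 libraries of the comparison alone, 256 with DESeq2 and 1 to 114 with single libraries left out. Between S-WT and C-WT 39 were called, against 323 with no filter, 0 without the replicate block, 25 with the 4 libraries alone, 594 with DESeq2 and 1 to 223 with single libraries left out. In the lists, where none was called, DESeq2 called 1 defense gene in each of both comparisons, 5 photosynthesis genes and 1 cation gene between S-WT and C-WT, no filter called 1 cation gene (*NCX1*), and single libraries left out gave 0 to 6 defense genes. The causes were not tested.

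Of the 10 genes most like *CAT1*, 2 remained with Spearman's correlation, 5 with total counts, 3 when libraries were centred within experiments (replicate block) and 2 to 6 with single libraries left out. The list therefore rests on the choice of libraries and measure. With 2 libraries per group, differences of *CAT1* within the interval given for C-OE2 against C-WT could not be resolved.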

Other observations

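Within each library, the ratio of *CAT1* counts to the summed counts of the 12 photosynthesis genes does not depend on scaling between libraries. It was 0.137 and 0.161 in S-OE2, 0.0173 and 0.0273 in S-WT, 0.0250 and 0.0271 in C-OE2, and 0.0169 and 0.0290 in C-WT, with Experiment 1 given before Experiment 2. The S-OE2 ratios lay above those of the other 6 libraries, which overlapped among the 3 other groups. The 12 photosynthesis genes took 1.40% and 1.14% of all counts in S-OE2, and 2.94% and 2.05% in S-WT. The ratio thus differed between S-OE2 and S-WT through both of its parts. Both parts of the ratio are genes that the study picked on these libraries, so it is given as a value without a test.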
